A study of Homo sapiens with 10 samples.

Results

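The transcripts described here belong to 10 genes of cellular iron handling, chosen by name for their roles in iron uptake (TFRC, STEAP3, SLC11A2), storage and ferritin turnover (FTH1, FTL, NCOA4), export (SLC40A1) and sensing (ACO1, IREB2, FBXL5). They are 10 of the 78894 genes of the deposited table. All 10 passed the filter on low values (10 or higher in 3 or more libraries), as did 29045 genes in total. These genes and the lists of other iron genes below were chosen with earlier results of these data known. Their counts of calls, set beside the share of all genes, are therefore descriptive. The cells were HEK293T, an established line derived from human embryonic kidney, kept for 24 h with different amounts of L-cysteine in the medium, the sulfur amino acid that supplies glutathione and iron-sulfur clusters. There were 2 libraries from medium without cysteine (0X-Cys), 4 from medium with the standard amount (1X-Cys) and 4 from medium with 10 times that amount (10X-Cys), which the labels give as biological replicates. The study's RNA figure gives 3 replicates for complete and cysteine-free medium, where the labels give 4 and 2. All cells came from the same unmodified line. The study's methods describe media of these 3 kinds made from DMEM lacking cysteine and methionine, with methionine added back, and a second starvation protocol whose control is complete DMEM. The RNA methods refer back to an amino acid starvation treatment and do not name which protocol was used. In the second protocol the starvation medium had dialyzed serum and its own glucose supplement. There, the medium without cysteine may differ from its control in more than cysteine. The design text names only normal and Cys-free media, and the 10X-Cys group is known from the sample titles. The level given below is the normalized count, the number of reads on a gene divided by its library's DESeq2 size factor. Since RNA of whole cultures was measured, less RNA per cell and fewer cells with the transcript cannot be told apart.

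The libraries held between 34836014 and 61654861 recovered reads on genes, with a median of 40850704. Cell identity was checked with marker genes. All 6 markers of the line (PAX2, LHX1, NEFL, NEFM, VIM, LIN28B) had 10 or more normalized counts in every library, with summed levels between 48972 and 59349. Of 7 erythroid markers, 2 (HBA1 and HBA2) reached 10 in every library, HBB was at 0 in all of them, and the list summed to between 109 and 271. The 5 macrophage markers summed to between 25.1 and 56.5, and the 5 hepatocyte markers to between 4.56 and 32.1.

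Cells take up iron bound to transferrin through the transferrin receptor, reduce it in endosomes, pass it to the cytosol and store the excess inside ferritin. Iron regulatory proteins IRP1 (gene ACO1) and IRP2 (gene IREB2) bind hairpins called iron-responsive elements (IREs) when iron is low. Binding in the 3′ UTR protects the TFRC mRNA from decay, so this mRNA is high in iron-starved cells and low in iron-replete cells, whereas binding in the 5′ UTR blocks translation of the ferritin and ferroportin mRNAs and leaves little trace in their abundance. Ferritin genes are also controlled by transcription, with NRF2 (gene NFE2L2) as activator and the haem-binding protein BACH1 as repressor.

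Matches to a letter pattern for IREs are shown, because those of the TFRC and ferritin mRNAs lie at opposite ends of the transcript. The pattern can miss IREs, so a gene may carry more than are shown here. The pattern was an unpaired C, 5 bases, the loop CAGTGN and 5 bases that pair with the first 5, with G-T pairs allowed. It was searched on the sense strand of GENCODE 44 transcripts. These were all annotated transcripts of the iron genes described here and the canonical transcripts of other protein-coding genes. Each match is written as DNA from GRCh38, 5′ to 3′, with 5 flanking bases on each side, and capitals mark the loop. TFRC held 4 matches in exon 19, in the 3′ UTR, at chr3:196050980-196051006, chr3:196050576-196050602, chr3:196050511-196050537 and chr3:196050464-196050490 on the minus strand. FTH1 (chr11:61967575-61967601, minus strand), FTL (chr19:48965336-48965362, plus strand) and SLC40A1 (chr2:189580662-189580688, minus strand) each held 1 match, in exon 1 and in the 5′ UTR.
TFRC match 1: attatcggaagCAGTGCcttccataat
TFRC match 2: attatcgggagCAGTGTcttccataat
TFRC match 3: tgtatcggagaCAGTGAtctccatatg
TFRC match 4: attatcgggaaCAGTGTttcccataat
FTH1: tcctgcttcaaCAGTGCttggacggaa
FTL: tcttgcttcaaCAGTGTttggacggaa
SLC40A1: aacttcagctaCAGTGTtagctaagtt

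The pattern was uncommon. Of 20046 canonical transcripts of protein-coding genes, 262 (1.31%) held at least 1 match, 19 (0.0948%) held it in the 5′ UTR and 123 (0.614%) in the 3′ UTR. The annotated transcripts of ACO1, IREB2, SLC11A2, NCOA4, FBXL5 and STEAP3 held no match, which says only that these letters do not occur there. The unpaired C lay at base 39 of the FTH1 transcript, base 33 of FTL and base 104 of SLC40A1, close to the cap, and between bases 3295 and 3811 of the 5012 bases of TFRC.

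**Figure D1:**
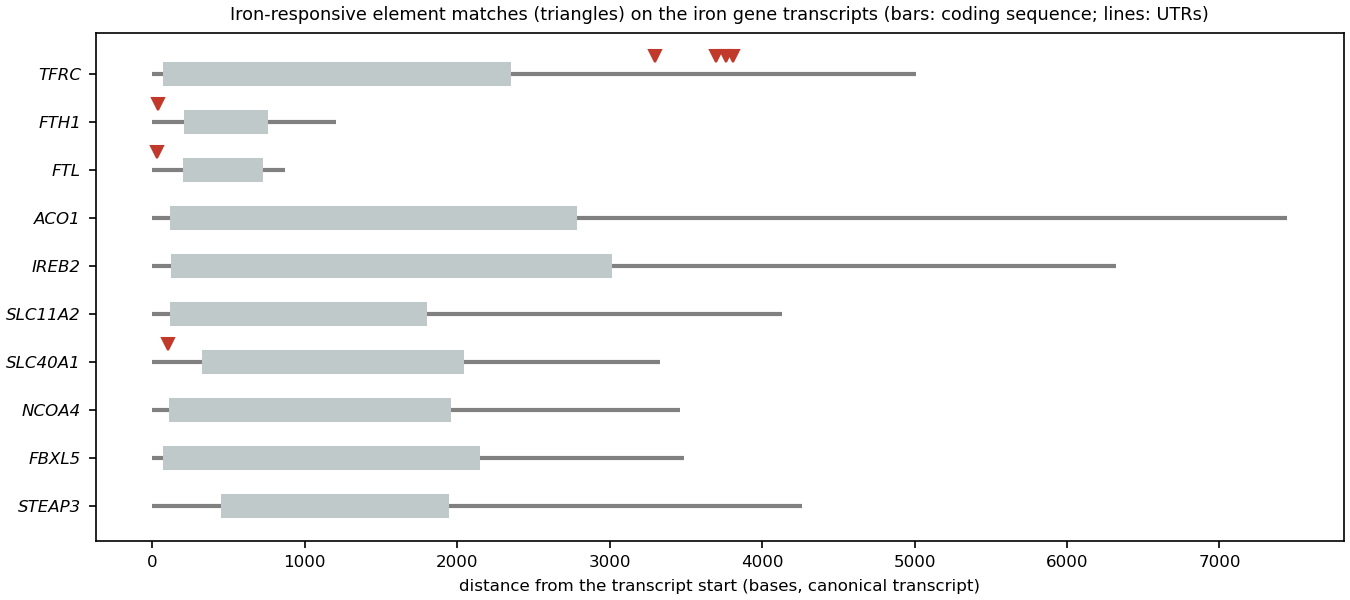
Canonical transcripts of the 10 iron genes drawn to scale from the transcript start (x axis, bases), with bars for coding sequence, lines for untranslated regions and triangles for matches to the iron-responsive element. The 4 TFRC matches sit together in the 3′ UTR, and the single matches of FTH1, FTL and SLC40A1 lie near the transcript start.

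In 1X-Cys the ferritin subunits were the most abundant of these transcripts per length and ferroportin the least. Per kilobase of canonical transcript, FTH1 reached 16412 ± 862 normalized counts (SD, n = 4), FTL 10783 ± 681 and TFRC 2914 ± 107. NCOA4 followed at 1916 ± 81.9, IREB2 at 1117 ± 47.0 and STEAP3 at 610 ± 40.8. SLC11A2 (391 ± 19.8) and FBXL5 (347 ± 20.9) were neighbours whose libraries overlapped, ACO1 stood at 301 ± 6.23 and SLC40A1 at 27.4 ± 9.69. The FTH1 level is uncertain, since most of its exon bases are shared with BEST1 on the opposite strand. In 10X-Cys, NCOA4 (2696 ± 107 per kilobase) lay above TFRC (1822 ± 52.1), and STEAP3 went from the sixth to the eighth place, at 219 ± 7.33 per kilobase. In 0X-Cys the order was that of 1X-Cys, and FBXL5 and ACO1 were the only neighbours whose libraries overlapped.

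Each gene was compared between media with limma on log2(normalized count + 1), and calls were made where the adjusted p over all 29045 genes was 0.01 or lower. In 0X-Cys against 1X-Cys, 4 of the 10 iron genes were called, beside 15.9% of all genes. FTH1 was higher, as were 7.39% of all genes, and TFRC, IREB2 and STEAP3 were lower, as were 8.51%. In 10X-Cys against 1X-Cys, 7 of the 10 were called, beside 46.0% of all genes. FTH1, FTL and NCOA4 were higher (23.1% of all genes were) and TFRC, ACO1, SLC11A2 and STEAP3 lower (22.9%). In 10X-Cys against 0X-Cys, 8 were called, beside 48.0% of all genes, with FTH1, FTL, IREB2 and NCOA4 higher (24.4% of all genes) and ACO1, SLC11A2, SLC40A1 and STEAP3 lower (23.6%). Libraries of the compared media did not overlap for 8, 7 and 9 of the 10 iron genes in these 3 comparisons. The same held for 13634, 14993 and 19161 of all 29045 genes, so a lack of overlap was common.

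Changes went both ways within the group, so its median log2 difference stayed near that of all genes, at -0.14, -0.03 and 0.05 in these 3 comparisons against 0.00, 0.01 and 0.00. The median size of the difference regardless of sign was 0.21, 0.58 and 0.49 for the iron genes and 0.27, 0.38 and 0.39 for all genes. The first 2 comparisons share the 1X-Cys libraries, so their values are given side by side and their likeness is not read as a result. Only 2 libraries stand for 0X-Cys, and the calls of that comparison depended on each: without replicate 1 of 0X-Cys, 2 iron genes (TFRC and FTH1) were called and 1198 genes in all, and without replicate 2, TFRC alone and 978 genes, against 4618 with both.

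TFRC encodes the transferrin receptor, the main entry for iron in dividing cells (ENSG00000072274, chr3:196012511-196082153, minus strand, GRCh38). Its normalized count was 8966 and 9915 in 0X-Cys, 14455, 15277, 13983.5 and 14696 in 1X-Cys, and 9169, 9401, 8775 and 9191 in 10X-Cys. Every 1X-Cys library lay above every other library, while the 0X-Cys and 10X-Cys libraries overlapped. TFRC fell to 64.6% of the 1X-Cys mean in 0X-Cys (log2 difference -0.63, SE 0.0547, limma adjusted p = 4.30e-06) and to 62.5% in 10X-Cys (log2 difference -0.68, SE 0.0375, limma adjusted p = 1.41e-10). Between 10X-Cys and 0X-Cys the log2 difference was -0.05, with a 95% interval from -0.13 to 0.04 and a limma adjusted p of 0.359. The gene shares 191 exon bases with an unnamed antisense lncRNA, whose mean level over the 10 libraries was 553.

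FTH1 encodes the ferritin heavy chain, the subunit that oxidises iron for storage (ENSG00000167996, chr11:61959718-61967634, minus strand). Normalized counts were 25533 and 27622 in 0X-Cys, 21214, 19004, 19733 and 19025 in 1X-Cys, and 33150.1, 33418, 35794 and 34063 in 10X-Cys. The 3 media did not overlap, with 1X-Cys lowest and 10X-Cys highest. FTH1 rose to 135% of the 1X-Cys mean in 0X-Cys (log2 difference 0.43, SE 0.0551, limma adjusted p = 9.67e-05) and to 173% in 10X-Cys (0.79, SE 0.0396, limma adjusted p = 4.24e-11). It was higher in 10X-Cys than in 0X-Cys by 0.36 on the log2 scale (SE 0.0376, limma adjusted p = 1.02e-08). Without replicate 2 of 0X-Cys, the difference of 0X-Cys from 1X-Cys was 0.37, with a limma adjusted p of 0.0116, and was not called.

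FTL encodes the ferritin light chain, which helps the iron core form (ENSG00000087086, chr19:48965309-48966879, plus strand). Its normalized count was 9912 and 10512 in 0X-Cys, 10202, 8946, 9471 and 8949.8 in 1X-Cys, and 20278, 19793, 21292 and 21424 in 10X-Cys. The 0X-Cys and 1X-Cys libraries overlapped, and every 10X-Cys library was far above both. FTL rose to 220% of the 1X-Cys mean in 10X-Cys (log2 difference 1.14, SE 0.0443, limma adjusted p = 1.78e-12) and was 203% of the 0X-Cys mean there (1.02, SE 0.0388, limma adjusted p = 7.07e-17). In 0X-Cys its log2 difference from 1X-Cys was 0.12, with a 95% interval from -0.01 to 0.25 and a limma adjusted p of 0.152.

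Reads of the ferritin genes could be shared with other annotated genes. FTH1 shares 1267 exon bases, 63.2% of its total, with BEST1 on the opposite strand, a channel gene of the retinal pigment epithelium. The BEST1 level was 74.9% to 78.9% of that of FTH1 in every library, and BEST1 differed from 1X-Cys by 0.43 in 0X-Cys and 0.84 in 10X-Cys on the log2 scale, so reads of the 2 genes cannot be told apart here. The study's methods say that a read falling on more than 1 gene was dropped, and whether this was so for FTH1 and BEST1 was not tested. The 25 annotated FTH1P pseudogenes summed to between 6.09% and 7.56% of FTH1, and the 16 FTLP pseudogenes to between 0.412% and 0.965% of FTL. With the pseudogenes added, the log2 differences from 1X-Cys were 0.43 (0X-Cys) and 0.78 (10X-Cys) for FTH1, and 0.12 and 1.14 for FTL.

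**Figure D2:**
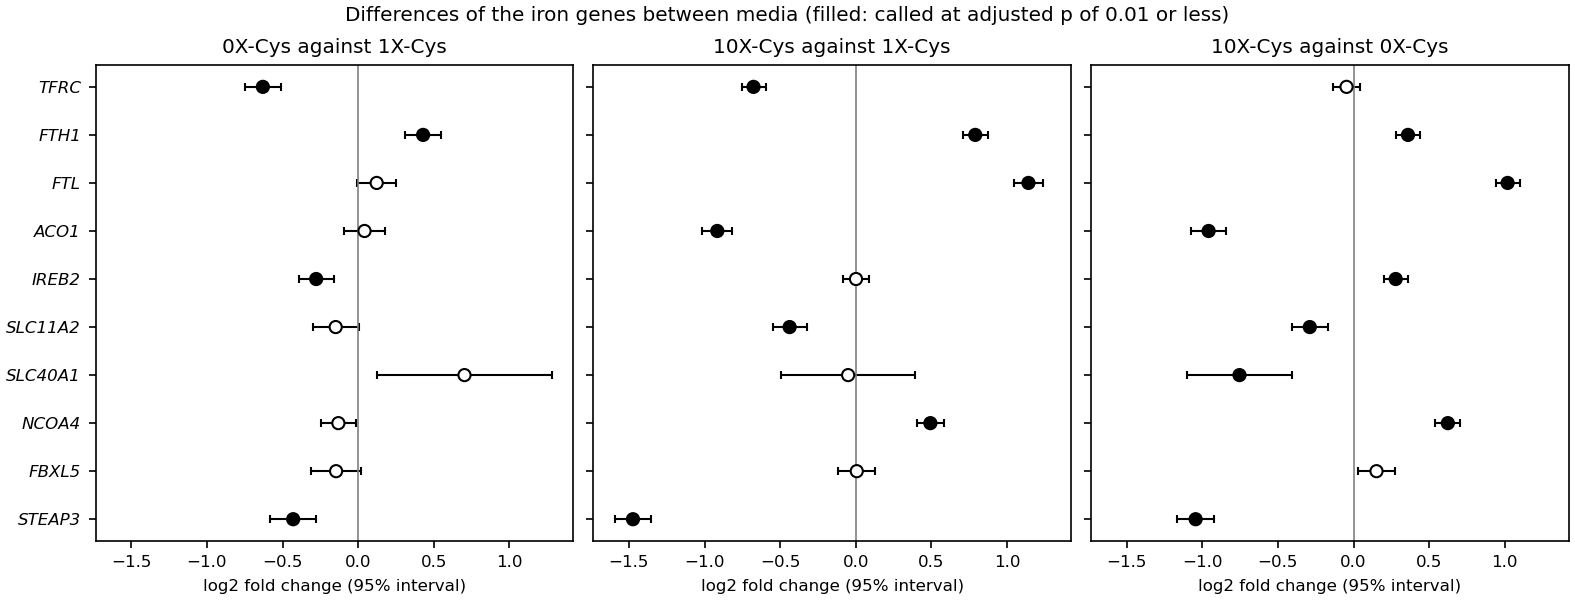
Log2 fold changes (x axis) of the 10 iron genes in the 3 comparisons, with 95% intervals from limma and filled points for called genes. TFRC lay left of 0 and FTH1 right of 0 in both comparisons with 1X-Cys, and the interval of TFRC between 10X-Cys and 0X-Cys included 0.

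The balance of receptor and ferritin transcripts within a library was compared as a ratio of normalized counts. It is not corrected for length, so only its differences between media are read. The log2 ratio of TFRC to FTH1 was -1.51 and -1.48 in 0X-Cys, -0.55, -0.31, -0.50 and -0.37 in 1X-Cys, and -1.85, -1.83, -2.03 and -1.89 in 10X-Cys. The 3 media did not overlap, and the ratio was highest in 1X-Cys. The log2 ratio of TFRC to FTL averaged -0.11 ± 0.0428 (SD, n = 2) in 0X-Cys, 0.64 ± 0.127 (SD, n = 4) in 1X-Cys and -1.18 ± 0.0892 (SD, n = 4) in 10X-Cys, again without overlap. The ferritin transcripts themselves moved unequally. The log2 ratio of FTH1 to FTL averaged 1.38 ± 0.0203 in 0X-Cys, 1.07 ± 0.0173 in 1X-Cys and 0.72 ± 0.0402 in 10X-Cys. Reads of FTH1 could not be told apart from those of BEST1, so both ratios that include FTH1 carry this limit.

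These values answer the question of an iron-starved or iron-replete pattern only at the level of mRNA. In both 0X-Cys and 10X-Cys, TFRC mRNA was below its 1X-Cys level, and both comparisons share the 1X-Cys libraries. For TFRC this is the direction that the IRE system gives in iron-replete cells and the opposite of that in iron-starved cells. Other mRNAs with an IRE or pattern match at the same transcript end as TFRC did not all move that way. CDC42BPA was called higher in both media (log2 differences 0.25 and 0.80). CDC14A and TF were called higher in 10X-Cys (0.29 and 1.22) and not called in 0X-Cys (-0.09 and -0.31). FTH1 mRNA, with its reads not told apart from those of BEST1, was higher in both media, and FTL mRNA was higher in 10X-Cys. However, the IREs of both ferritin mRNAs act on translation, and ferritin protein was not measured here. Iron was not measured either, and whether iron had a part in these differences was not tested.

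**Figure D3:**
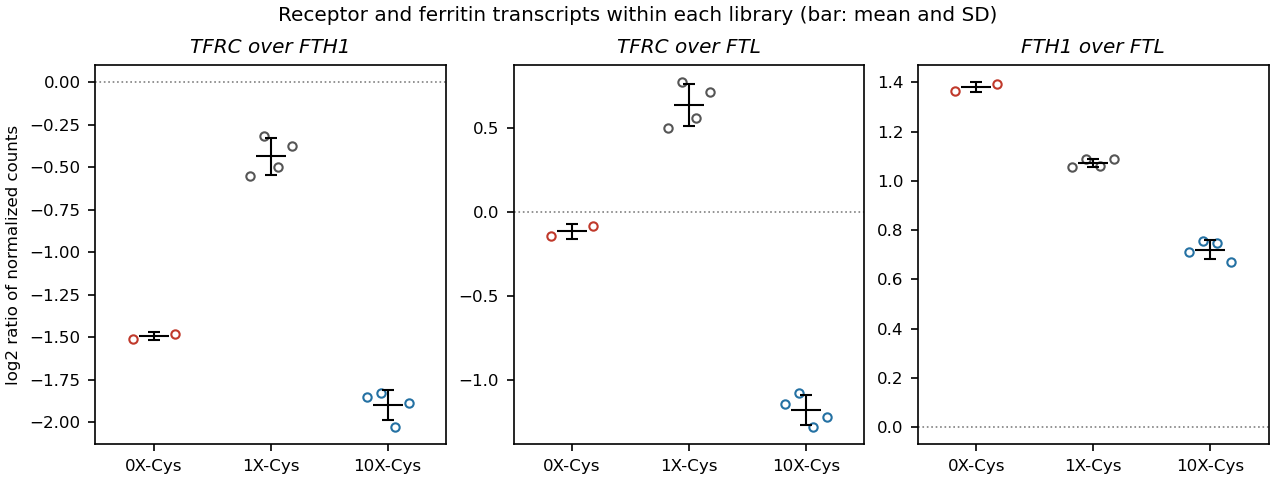
Log2 ratios of the normalized counts of TFRC to FTH1, TFRC to FTL and FTH1 to FTL (y axes) in each library of the 3 media (x axis), with open points for libraries and bars for mean and SD. Both receptor to ferritin ratios were highest in 1X-Cys and lowest in 10X-Cys, and the FTH1 to FTL ratio was highest in 0X-Cys.

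STEAP3 is the endosomal ferrireductase that converts iron released from transferrin to its ferrous form (ENSG00000115107, chr2:119223831-119265652, plus strand). Its normalized count was 1970.35 and 1883 in 0X-Cys, 2573, 2716, 2745 and 2365 in 1X-Cys, and 892, 932, 946 and 966 in 10X-Cys. The 3 media did not overlap, and 10X-Cys was lowest. STEAP3 fell to 74.1% of 1X-Cys in 0X-Cys (log2 difference -0.43, SE 0.0710, limma adjusted p = 0.000621) and to 35.9% in 10X-Cys (-1.47, SE 0.0562, limma adjusted p = 1.44e-12), the largest change of the 10 genes in that comparison. The call in 0X-Cys was lost without replicate 1 (log2 difference -0.46, limma adjusted p = 0.0135) or replicate 2 (-0.40, limma adjusted p = 0.0264) of 0X-Cys. The gene shares 500 exon bases with STEAP3-AS1 on the opposite strand, whose mean level was 264.

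SLC11A2 encodes DMT1, which carries ferrous iron across the endosomal membrane (ENSG00000110911, chr12:50979401-51028566, minus strand). Its normalized count ranged from 1432 to 1479.9 in 0X-Cys, from 1526 to 1724 in 1X-Cys and from 1148 to 1239 in 10X-Cys, with no overlap between media. It fell to 73.8% of 1X-Cys in 10X-Cys (log2 difference -0.44, SE 0.0534, limma adjusted p = 2.24e-06). In 0X-Cys the log2 difference was -0.15, with a 95% interval from -0.30 to 0.00 and a limma adjusted p of 0.137.

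Of 13 other genes of iron uptake and reduction, 11 were tested. In 10X-Cys 5 rose and 4 fell against 1X-Cys, where 23.1% of all genes rose and 22.9% fell. In 0X-Cys none rose and 1 fell, where 7.39% of all genes rose and 8.51% fell. The median log2 difference of these genes was 0.17 in 10X-Cys and -0.07 in 0X-Cys. STEAP1, a relative of STEAP3, fell from 352 ± 17.7 (SD, n = 4) normalized counts in 1X-Cys to 152 ± 8.66 (n = 4) in 10X-Cys, a log2 difference of -1.21. SCARA5, a receptor for extracellular ferritin, rose from 55.5 ± 12.7 to 111 ± 26.0 (log2 difference 0.98). SLC39A8, a carrier of divalent metals, fell in 0X-Cys to 1454 ± 95.6 (n = 2) from 1853 ± 158 (n = 4), a log2 difference of -0.35.

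NCOA4 is the cargo receptor that delivers ferritin to lysosomes, where its iron is released (ENSG00000266412, chr10:46005088-46030623, minus strand). The libraries held 6001 and 6104 in 0X-Cys, 6943, 6682, 6256 and 6649 in 1X-Cys, and 8904, 9788, 9223 and 9412 normalized counts in 10X-Cys. The media did not overlap, with 10X-Cys highest and 0X-Cys lowest. NCOA4 rose to 141% of 1X-Cys in 10X-Cys (log2 difference 0.49, SE 0.0418, limma adjusted p = 2.77e-08) and was 154% of 0X-Cys there (0.62, limma adjusted p = 1.85e-12). In 0X-Cys the log2 difference from 1X-Cys was -0.13, with a 95% interval from -0.25 to -0.01 and a limma adjusted p of 0.0911.

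Of 7 other genes of storage and ferritin turnover, 6 were tested. In 10X-Cys 2 rose (23.1% of all genes did) and 2 fell (22.9%), with a median log2 difference of -0.06. In 0X-Cys none rose (7.39% of all genes) and 3 fell (8.51%), with a median of -0.12. PCBP2, a chaperone that hands iron to ferritin, rose from 21043 ± 1993 (SD, n = 4) in 1X-Cys to 30030.0 ± 532 (n = 4) in 10X-Cys, a log2 difference of 0.52. Its relative PCBP1, the chaperone first described in that role, fell in 0X-Cys from 7990.4 ± 312 to 6414 ± 201 (n = 2), a log2 difference of -0.32. PCBP1 was also called lower in 10X-Cys (-0.18). BOLA2, which assembles iron-sulfur complexes with GLRX3, fell to 50.9% of 1X-Cys in 10X-Cys (log2 difference -0.97) and to 82.8% in 0X-Cys (-0.27). BOLA2 has a near-identical copy in the genome, so its value is uncertain.

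ACO1 encodes IRP1, which is cytosolic aconitase when it holds an iron-sulfur cluster and binds IREs when it does not (ENSG00000122729, chr9:32384603-32454769, plus strand). Normalized counts of ACO1 were 2391 and 2226 in 0X-Cys, 2255, 2289, 2243 and 2178 in 1X-Cys, and 1196, 1224, 1183 and 1146 in 10X-Cys. The 0X-Cys and 1X-Cys libraries overlapped, and all 10X-Cys libraries were lower. ACO1 fell to 53.0% of 1X-Cys in 10X-Cys (log2 difference -0.92, SE 0.0473, limma adjusted p = 5.90e-11). In 0X-Cys its log2 difference was 0.04, with a 95% interval from -0.09 to 0.17 and a limma adjusted p of 0.660.

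IREB2 encodes IRP2, which binds IREs and is controlled by its own degradation (ENSG00000136381, chr15:78437431-78501453, plus strand). Its normalized count was 5803 and 5838 in 0X-Cys, 7266, 7317, 6994 and 6671 in 1X-Cys, and 7031, 7226, 7057 and 6936 in 10X-Cys. The 0X-Cys libraries lay below all others, and 10X-Cys lay within the 1X-Cys range. IREB2 fell to 82.4% of 1X-Cys in 0X-Cys (log2 difference -0.28, SE 0.0540, limma adjusted p = 0.00189), a call lost without either 0X-Cys library (limma adjusted p = 0.0392 and 0.0366) or without replicate 2 of 1X-Cys (limma adjusted p = 0.0111). In 10X-Cys the log2 difference was 0.00, with a 95% interval from -0.08 to 0.08. The mRNAs of the paired regulators therefore differed from 1X-Cys in different media, ACO1 in 10X-Cys and IREB2 in 0X-Cys. The difference between 10X-Cys and 0X-Cys was called for each, at -0.96 for ACO1 (limma adjusted p = 2.06e-13) and 0.28 for IREB2 (limma adjusted p = 8.44e-07).

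FBXL5 is the iron-binding subunit of the ubiquitin ligase that degrades IRP2 (ENSG00000118564, chr4:15604381-15681679, minus strand). Its normalized count ranged from 1082 to 1105 in 0X-Cys, from 1155 to 1318 in 1X-Cys and from 1152 to 1272 in 10X-Cys. The 0X-Cys libraries were lowest, and the other media overlapped. No comparison called it, with log2 differences of -0.15 in 0X-Cys (95% interval -0.31 to 0.02) and 0.01 in 10X-Cys (95% interval -0.12 to 0.13) against 1X-Cys. Between 10X-Cys and 0X-Cys the difference was 0.15 (limma adjusted p = 0.0324), and with every library scaled to the same total it was 0.23 and called (limma adjusted p = 0.00142).

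SLC40A1 encodes ferroportin, the only known iron exporter of mammalian cells (ENSG00000138449, chr2:189560590-189583758, minus strand). It was the scarcest of the 10, with a normalized count of 139 and 146 in 0X-Cys, 84.0, 91.4, 134 and 56.0 in 1X-Cys, and 72.5, 79.3, 94.7 and 91.8 in 10X-Cys. The 0X-Cys libraries were above all others, by a small margin over replicate 3 of 1X-Cys, and the 10X-Cys libraries lay inside the wide 1X-Cys range. SLC40A1 in 10X-Cys was 59.3% of its 0X-Cys level (log2 difference -0.75, SE 0.167, limma adjusted p = 0.000415). That call was lost without the filter on low values (limma adjusted p = 0.0120) and with all 3 media in one fit (limma adjusted p = 0.0141). In 0X-Cys against 1X-Cys the log2 difference was 0.70, with a 95% interval from 0.13 to 1.28 and a limma adjusted p of 0.0673, which became 0.91 and 0.00423 without replicate 3 of 1X-Cys. In 10X-Cys against 1X-Cys it was -0.05, with a 95% interval from -0.49 to 0.39.

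Of 8 other genes of iron export and systemic control, 4 were tested, since HAMP, HEPH, HEPHL1 and HJV did not reach the minimum. Against 1X-Cys, 2 rose and none fell in 10X-Cys, beside 23.1% and 22.9% of all genes, while 1 rose and 1 fell in 0X-Cys, beside 7.39% and 8.51%. ERFE, an erythroid hormone that restrains hepcidin, rose from 1104 ± 87.5 (SD, n = 4) in 1X-Cys to 1662 ± 7.30 (n = 2) in 0X-Cys and 1939 ± 117 (n = 4) in 10X-Cys, with log2 differences of 0.59 and 0.81. BMP6, a signal that induces hepcidin, fell to 770 ± 24.4 in 0X-Cys from 993 ± 33.0 (log2 difference -0.37).

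The ferritin genes are also targets of NRF2 and BACH1, so these regulators, their partners and the classical target HMOX1 were described. HMOX1, the inducible haem oxygenase that frees iron from haem, had 560 and 623 normalized counts in 0X-Cys, 357, 352, 430.4 and 417 in 1X-Cys, and 2649, 2433, 2880.4 and 2695 in 10X-Cys. The 3 media did not overlap, in the same order as for FTH1. HMOX1 rose by 0.61 in 0X-Cys (SE 0.114, limma adjusted p = 0.00155) and by 2.78 in 10X-Cys (SE 0.0746, limma adjusted p = 1.79e-14) on the log2 scale. BACH1 rose from 1626 ± 127 (SD, n = 4) in 1X-Cys to 2942 ± 149 (n = 4) in 10X-Cys, a log2 difference of 0.86, and was at 1843 ± 34.1 (n = 2) in 0X-Cys, where it was not called. NFE2L2 fell from 18148 ± 753 to 15689 ± 337 in 10X-Cys (log2 difference -0.21) and was at 17371 ± 710 in 0X-Cys, not called. MAFG, a small MAF protein that pairs with either factor, was 2660 ± 283 in 1X-Cys, 1929 ± 250 in 0X-Cys and 8534 ± 209 in 10X-Cys, so it fell in 0X-Cys (log2 difference -0.46) and rose in 10X-Cys (1.69).

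These regulators were listed together with the ligase partners of FBXL5. Of the 7 genes, all tested, 3 rose and 3 fell in 10X-Cys, where 46.0% of all genes were called, with a median log2 difference of 0.08. None rose and 1 fell in 0X-Cys, where 15.9% of all genes were called, with a median of -0.10. RBX1, the RING subunit of the ligase, fell to 63.6% of 1X-Cys in 10X-Cys (log2 difference -0.65, SE 0.0535, limma adjusted p = 1.82e-08).

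Of 17 genes of haem synthesis, transport and breakdown, all were tested. In 10X-Cys 3 rose and 11 fell against 1X-Cys, with a median log2 difference of -0.38, where the median of all genes was 0.01, 23.1% of them rose and 22.9% fell. In 0X-Cys 2 rose and 2 fell, with a median of -0.06, beside 7.39% and 8.51% of all genes. The 3 that rose in 10X-Cys were HMOX1, ALAS1, the first enzyme of haem synthesis outside the erythroid lineage (2209 ± 87.8 to 5680.3 ± 380.3, log2 difference 1.36), and SLC48A1, a haem importer. SLC48A1 stood at 608 and 527 in 0X-Cys, 203, 263, 298 and 177 in 1X-Cys, and 529, 569, 637 and 534 in 10X-Cys, with every library of the changed media above every 1X-Cys library. Its log2 difference was 1.29 in each (limma adjusted p = 0.000173 and 2.63e-07). UROS, a middle step of haem synthesis, fell to 50.4% of 1X-Cys in 10X-Cys (log2 difference -0.99). HMOX2, the constitutive haem oxygenase, fell to 68.7% of 1X-Cys in 0X-Cys (-0.54) and to 55.1% in 10X-Cys (-0.86). ALAS1, which the naming rule did not cover, was named because it completes the count of 3.

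Of 7 genes of mitochondrial iron, all tested, none rose and 3 fell in 10X-Cys, beside 23.1% and 22.9% of all genes, with a median log2 difference of -0.15. In 0X-Cys 1 rose and none fell, beside 7.39% and 8.51% of all genes, with a median of 0.09. TMEM14C, a porphyrinogen transporter, rose to 130.3% of 1X-Cys in 0X-Cys (log2 difference 0.38, limma adjusted p = 0.00131). In 10X-Cys it was among those that fell, to 84.5% of 1X-Cys (log2 difference -0.24, limma adjusted p = 0.00148).

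Other mRNAs that carry an IRE, or that act on TFRC mRNA decay, form a list of 7 genes, of which 6 were tested. In 10X-Cys 3 rose and 2 fell, with a median log2 difference of 0.16, while 23.1% of all genes rose and 22.9% fell. In 0X-Cys 1 rose and 1 fell, with a median of -0.04, while 7.39% of all genes rose and 8.51% fell. ZC3H12A, an endonuclease that cuts the TFRC 3′ UTR, had 123 and 108 normalized counts in 0X-Cys, 199, 193, 208 and 211 in 1X-Cys, and 179, 146, 166 and 145 in 10X-Cys. The media did not overlap, and ZC3H12A fell in 0X-Cys (log2 difference -0.81, SE 0.143, limma adjusted p = 0.001004) and in 10X-Cys (-0.35, SE 0.106, limma adjusted p = 0.00932). CDC42BPA, a kinase whose mRNA has a 3′ UTR IRE, rose in both (0.25 and 0.80). With the pattern used here, CDC42BPA held no match, ALAS2 held 1 in the 5′ UTR, and CDC14A and TF each held 1 in the 3′ UTR.

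Over all 7 lists, 58 of 66 genes were tested. In 0X-Cys 5 rose and 9 fell, 14 of 58 beside 15.9% of all genes, and in 10X-Cys 18 rose and 25 fell, 43 of 58 beside 46.0% of all genes. In 10X-Cys against 0X-Cys 22 rose and 23 fell, 45 of 58 beside 48.0%.

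The genes whose profile over the 10 libraries was most like that of each headline transcript were ranked by the root mean square difference of centred log2 levels among 14551 candidates. For TFRC they were CHORDC1 (0.05), PSMD1 (0.05) and UTP18 (0.06). For FTH1 they were BEST1 (0.03), which shares its exon bases, ZXDC (0.05) and CALCOCO1 (0.05). For FTL they were MICALL1 (0.05), TSPYL2 (0.05) and JUND (0.06).

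Scaling every library to the same total, in place of the deposited size factors, moved the median log2 difference of genes averaging at least 100 in 10X-Cys against 1X-Cys from -0.02 to 0.08 and the share of higher genes among those called from 50.3% to 61.8%. Under that scaling all 7 iron genes called in 10X-Cys against 1X-Cys were called in the direction given above, with log2 differences of -0.57 for TFRC, 0.89 for FTH1 and 1.25 for FTL.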

How the data were processed

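Poly(A) RNA of 10 HEK293T cultures was sequenced, and samples were grouped by the cysteine medium in their titles. The authors aligned reads with STAR 2.7.10b to GRCh38 and deposited a signal value per Ensembl gene, the count divided by a DESeq2 size factor per library. For the counting, the paper's methods name featureCounts and the submitters' processing notes HTSeq, and the strand setting of the counting is not given in the sources used here. In each library 100% of values were whole multiples of the worth of 1 read (tolerance 0.001), from which reads were recovered (34836014 to 61654861 per library). Replicates differed by more than sampling noise, with a chi-square per degree of freedom between 3.41 and 13.96, and their number, not the depth, limits the precision.

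Of 78894 gene IDs, 61463 were found in GENCODE 44 and 42165 had a symbol. Genes at 10 or more in at least 3 libraries (29045) were fitted with limma 3.58.1 (eBayes with trend, R 4.3.3) on log2(value + 1), so that fold changes of scarce genes are understated. Each comparison used its own groups, was 2-sided with Benjamini-Hochberg adjustment, and took an adjusted p of 0.01 as its threshold. edgeR 4.0.16 and DESeq2 1.42.0 on recovered reads, other filters, pseudocounts, scalings and thresholds, the replicate number as a block and leaving out each library were alternatives, and the sums with pseudogenes were added after seeing the data.

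The members and lists were chosen with earlier results of these data known. Named genes are the 10 members and, per list and comparison, the greatest rise and fall among called genes with a mean of 100 or more and groups that do not overlap, with HMOX1, BACH1 and NFE2L2 in any case. Some genes that this rule covers are not reported here.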

Additional observations from a re-analysis of the deposited data

How the results depend on the processing

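Alternative settings gave 536 results for single iron genes. Of these, 506 kept the direction and the side of the threshold, 12 lost a call, 3 gained a call and 15 changed sign. Some of them could not change direction. Other filters, all groups in one fit and the threshold of 0.05 leave the log2 difference as it was. So does the replicate block where both media have the same number of libraries. The threshold of 0.05 is no refit and cannot lose a call. The count of 506 therefore includes outcomes that were fixed in advance. The 0X-Cys against 1X-Cys comparison depended most on the settings. Without a filter on low values, 738 genes and 0 iron genes were called there in place of 4618 and 4, with limma adjusted p-values of 0.0105 for TFRC (log2 difference -0.63), 0.0304 for FTH1 (0.43), 0.0351 for IREB2 and 0.0375 for STEAP3. That setting tests more genes. In that unfiltered fit all 4 iron genes kept their log2 difference, since only the adjustment and the fitted spread change. At an adjusted p of 0.05, 7987 genes were called. Leaving out 1 library in turn gave between 978 and 6300 genes, between 1 and 5 iron genes, and 0.37 to 0.49 for FTH1 (without replicate 2 of 0X-Cys, 0.37 and not called). Without replicate 1 or 2 of 1X-Cys, 2968 and 2795 genes were called.

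In 10X-Cys against 0X-Cys, 8864 genes were called without a filter, against 13954. TFRC there was 0.0351 with equal totals and -0.119 to 0.0264 when 1 library was left out, changing sign without replicate 2 of 0X-Cys. SLC40A1 lost its call without a filter (limma adjusted p = 0.0120) and with all groups in one fit (0.0141), and FBXL5 gained one at an adjusted p of 0.05. Other sign changes concerned differences near 0 that were not called: SLC40A1 (0.0530 with equal totals, -0.26 to 0.15 with 1 library left out), IREB2 (-0.00254 with DESeq2, -0.0261 to 0.0183) and FBXL5 (-0.0162 to 0.0472) in 10X-Cys against 1X-Cys, and ACO1 (-0.00971 to 0.0933) in 0X-Cys against 1X-Cys. Where no other cause is given, the cause was not tested.

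Whether the shared replicate numbers pair the samples could not be decided from the deviations of libraries from their group means. Deviations of same-numbered libraries correlated between -0.12 and 0.10 over 8 pairs and 17679 genes. Those of differently numbered libraries correlated between -0.12 and 0.07. The deviations of the 0X-Cys libraries are mirror images of each other, so they add little. With the replicate number as a block, 6532, 13392 and 12393 genes and 4, 7 and 8 iron genes were called in the 3 comparisons.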
